A study of Mus musculus with 9 samples.

Results

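The genes described here are 8 that mark basophils and mast cells, measured by RNA sequencing in erythroblasts sorted from mouse spleen. They were chosen by gene symbol as a list of granule proteases, chains of the high-affinity IgE receptor, a surface receptor and chemokines (Prss34, Mcpt8, Cpa3, Fcer1a, Ms4a2, Cd200r3, Ccl3 and Ccl4). All 8 were found among the 20368 genes of the deposited table. The libraries were made from total RNA of CD71+Ter119+ splenocytes of C57BL/6 mice aged 4 weeks. Of these, 3 libraries came from knockout mice (Dhh-/-), 3 from heterozygous mice (Dhh+/-) and 3 from wildtype mice. Dhh encodes Desert hedgehog, a secreted signalling protein, and the labels name no tissue-specific driver, so the allele is described only as Dhh-/- or Dhh+/-. CD71 is the transferrin receptor, and the Ter119 antibody marks cells of the red lineage. Whether the 3 libraries of a genotype are 3 mice is not stated, so every p-value refers to spread among libraries, some of which may be technical.

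Basophils are rare granulocytes of the blood and mast cells are their long-lived counterparts in tissues. Both carry the IgE receptor and store proteases in granules, and neither belongs to the erythroid lineage that the sort selects. In mice, Prss34 and Mcpt8 encode serine proteases typical of basophils, Cpa3 encodes a carboxypeptidase of both cell types, and Fcer1a and Ms4a2 encode the IgE-binding alpha chain and the signal-amplifying beta chain of the receptor. Cd200r3 encodes an activating receptor of mouse basophils and mast cells. Ccl3 and Ccl4 encode chemokines that many leukocytes release on stimulation, so they are the least specific members of the list.

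Promoter sequences are shown for the members whose levels ran closest together (Prss34 and Mcpt8), for the carboxypeptidase gene and for the leading chemokine gene. Each runs from 250 bases before to 50 bases after the annotated start, in RefSeq's table for GRCm38.p6, which held 7 of the 8 members. GATA factors, among them Gata2 of basophils and mast cells and Gata1 of erythroid cells, bind short motifs of this name. Capitals mark a GATA motif, searched as AGATAA and AGATAG and as TGATAA and TGATAG on both strands. The windows lie at chr17:25298144-25298443 (plus strand) for Prss34, chr14:56085148-56085447 (minus strand) for Mcpt8, chr3:20242132-20242431 (minus strand) for Cpa3 and chr11:83649329-83649628 (minus strand) for Ccl3.
Prss34: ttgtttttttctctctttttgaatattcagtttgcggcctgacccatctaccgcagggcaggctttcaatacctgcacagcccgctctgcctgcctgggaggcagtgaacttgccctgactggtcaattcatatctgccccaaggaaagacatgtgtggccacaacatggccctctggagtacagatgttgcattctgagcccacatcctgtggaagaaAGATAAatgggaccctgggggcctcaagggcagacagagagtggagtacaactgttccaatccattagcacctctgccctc
Mcpt8: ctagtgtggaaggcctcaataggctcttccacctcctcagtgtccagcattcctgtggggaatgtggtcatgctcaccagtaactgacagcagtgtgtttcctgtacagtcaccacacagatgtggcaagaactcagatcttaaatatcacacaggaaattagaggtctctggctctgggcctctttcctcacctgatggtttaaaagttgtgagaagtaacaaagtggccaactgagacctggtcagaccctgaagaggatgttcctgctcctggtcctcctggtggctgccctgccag
Cpa3: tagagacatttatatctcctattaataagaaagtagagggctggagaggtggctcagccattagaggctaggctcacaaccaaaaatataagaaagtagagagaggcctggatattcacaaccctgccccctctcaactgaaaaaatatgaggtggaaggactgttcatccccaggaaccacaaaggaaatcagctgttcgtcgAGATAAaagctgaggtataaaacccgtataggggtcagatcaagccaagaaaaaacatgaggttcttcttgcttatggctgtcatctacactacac
Ccl3: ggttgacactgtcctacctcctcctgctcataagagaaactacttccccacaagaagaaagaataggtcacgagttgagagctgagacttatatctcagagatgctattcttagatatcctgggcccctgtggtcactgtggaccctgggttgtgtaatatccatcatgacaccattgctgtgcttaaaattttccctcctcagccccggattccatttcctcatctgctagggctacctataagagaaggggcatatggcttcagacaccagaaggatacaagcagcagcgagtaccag
In all, 5 motifs were searched, and GATA was picked for the capitals after the matches were seen. A GATA motif was present in 5 of the 7 windows (71.4%), against 29.6% of all 32544 promoter windows of the same length. In Prss34 it began 31 bases and in Cpa3 46 bases before the start. Fcer1a held 1 match, and Ms4a2 and Cd200r3 held 3 each, while the windows of Mcpt8 and Ccl3 held none. A CEBP motif (TTNNGNAA, both strands) was in 3 of 7 windows (42.9%), those of Fcer1a, Cd200r3 and Ccl3, against 40.7% of all windows. A TATA box (TATAAA or TATATA, gene strand) was in 2 of 7 (28.6%), those of Cpa3 and Fcer1a, against 12.2%. The NF-kB motif (20.8% of all windows) and the AP-1 motif TGANTCA (7.79%), both strands for each, were in 0 of the 7. A match of these letters is a description of the sequence and not a bound site.

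The members were read at modest depth. The deposited values are FPKM, a level scaled to gene length and library size, so comparisons between genes rest on the lengths used. The reads recovered from them numbered 7.05 to 14.2 M per library. Erythroid identity was plain in every library, with the 10 erythroblast markers, led by Hbb-bs and Alas2, summing to 18208 to 27583 FPKM in knockout, 15839 to 30707 FPKM in heterozygous and 20331 to 29910 FPKM in wildtype libraries. Dhh was listed at 0 in 8 libraries, wildtype included, and at 0.0267 FPKM in heterozygous replicate 1, which leaves the genotype labels unchecked by its level. Libraries stood apart: wildtype replicates 1 and 3 lay at opposite ends for the members, and values with and without them are given below.

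Prss34 (ENSMUSG00000056399, chromosome 17, 25298394 to 25300165, mm10) was the most abundant protease of the list. Its level was 3.39, 22.7 and 8.66 FPKM in knockout replicates 1 to 3, 5.61, 7.10 and 10.7 FPKM in heterozygous replicates 1 to 3, and 28.5, 13.6 and 0.984 FPKM in wildtype replicates 1 to 3. The highest and the lowest of the 9 libraries were both wildtype, and all 3 genotypes overlapped. These levels rest on 56, 261 and 137 reads in knockout, 108, 63 and 198 reads in heterozygous and 301, 162 and 16 reads in wildtype libraries.

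Mcpt8 (ENSMUSG00000022157, chromosome 14, 56082166 to 56085273) ran alongside Prss34 at a lower level. It was at 2.89, 10.6 and 5.68 FPKM in knockout, 4.90, 4.41 and 7.50 FPKM in heterozygous and 16.8, 7.78 and 1.07 FPKM in wildtype libraries. Wildtype replicate 1, knockout replicate 2 and wildtype replicate 2 were the 3 highest libraries for both proteases, and wildtype replicate 3 was the lowest.

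Cpa3 (ENSMUSG00000001865, chromosome 3, 20215620 to 20242181) was scarcer. It stood at 0.354, 2.33 and 3.44 FPKM in knockout, 2.13, 1.04 and 1.94 FPKM in heterozygous and 7.45, 1.62 and 0.360 FPKM in wildtype libraries. It was the only member whose lowest library was not wildtype replicate 3, although knockout replicate 1 and wildtype replicate 3 held 7 reads each and cannot be ranked at this depth.

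The receptor chains were near the limit of detection. Fcer1a (ENSMUSG00000005339, chromosome 1, 173221284 to 173227214) was at 0.359, 0.516 and 0.974 FPKM in knockout, 0.616, 0.267 and 0.958 FPKM in heterozygous and 2.92, 0.398 and 0 FPKM in wildtype libraries, on 80 reads in all. A count of 0 in wildtype replicate 3 allows up to 3 reads, or 0.219 FPKM, for counting error only. Ms4a2 (ENSMUSG00000024680, chromosome 19, 11615523 to 11623719) was at 0.364, 1.15 and 0.609 FPKM in knockout, 1.00, 0.407 and 0.908 FPKM in heterozygous and 2.28, 0.202 and 0 FPKM in wildtype libraries, on 79 reads in all. Wildtype replicate 1 was again the highest library for both chains, and the genotypes overlapped. The third chain of the receptor, Fcer1g, which other myeloid cells also use, was far more abundant, at 89.9 to 254 FPKM in knockout, 123 to 173 FPKM in heterozygous and 32.3 to 276 FPKM in wildtype libraries.

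Cd200r3 (ENSMUSG00000036172, chromosome 16, 44943678 to 44981380) was at 0.433, 0.479 and 0.975 FPKM in knockout, 1.49, 0.248 and 1.16 FPKM in heterozygous and 3.13, 0.740 and 0.0678 FPKM in wildtype libraries. Its second highest library was heterozygous replicate 1, which ranked seventh of 9 for Prss34. Tyrobp, which encodes an adaptor for activating receptors of myeloid and NK cells, was at 97.9 to 281 FPKM in knockout, 127 to 233 FPKM in heterozygous and 37.6 to 304 FPKM in wildtype libraries.

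Ccl3 (ENSMUSG00000000982, chromosome 11, 83647844 to 83649355) and Ccl4 (ENSMUSG00000018930, chromosome 11, 83662584 to 83664683) are neighbours on the chromosome. Ccl3 had the highest mean of the 8 members over the 9 libraries (36.4 FPKM), followed by Ccl4 (16.0 FPKM) and Prss34 (11.2 FPKM). The order rests in part on wildtype replicate 1: without it Prss34 averaged 9.09 FPKM and Ccl4 8.71 FPKM, against 21.7 FPKM for Ccl3, and Prss34 was above Ccl3 in knockout and wildtype replicate 2. Ccl3 was at 14.4, 17.9 and 43.0 FPKM in knockout, 45.4, 9.02 and 31.6 FPKM in heterozygous and 153, 9.69 and 2.75 FPKM in wildtype libraries. Ccl4 was at 6.35, 6.41 and 15.5 FPKM in knockout, 16.6, 5.19 and 11.1 FPKM in heterozygous and 74.7, 6.03 and 2.49 FPKM in wildtype libraries. Both chemokine genes ranked the 9 libraries in the same order, with wildtype replicate 1 first, heterozygous replicate 1 next and wildtype replicate 3 last.

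**Figure D1:**
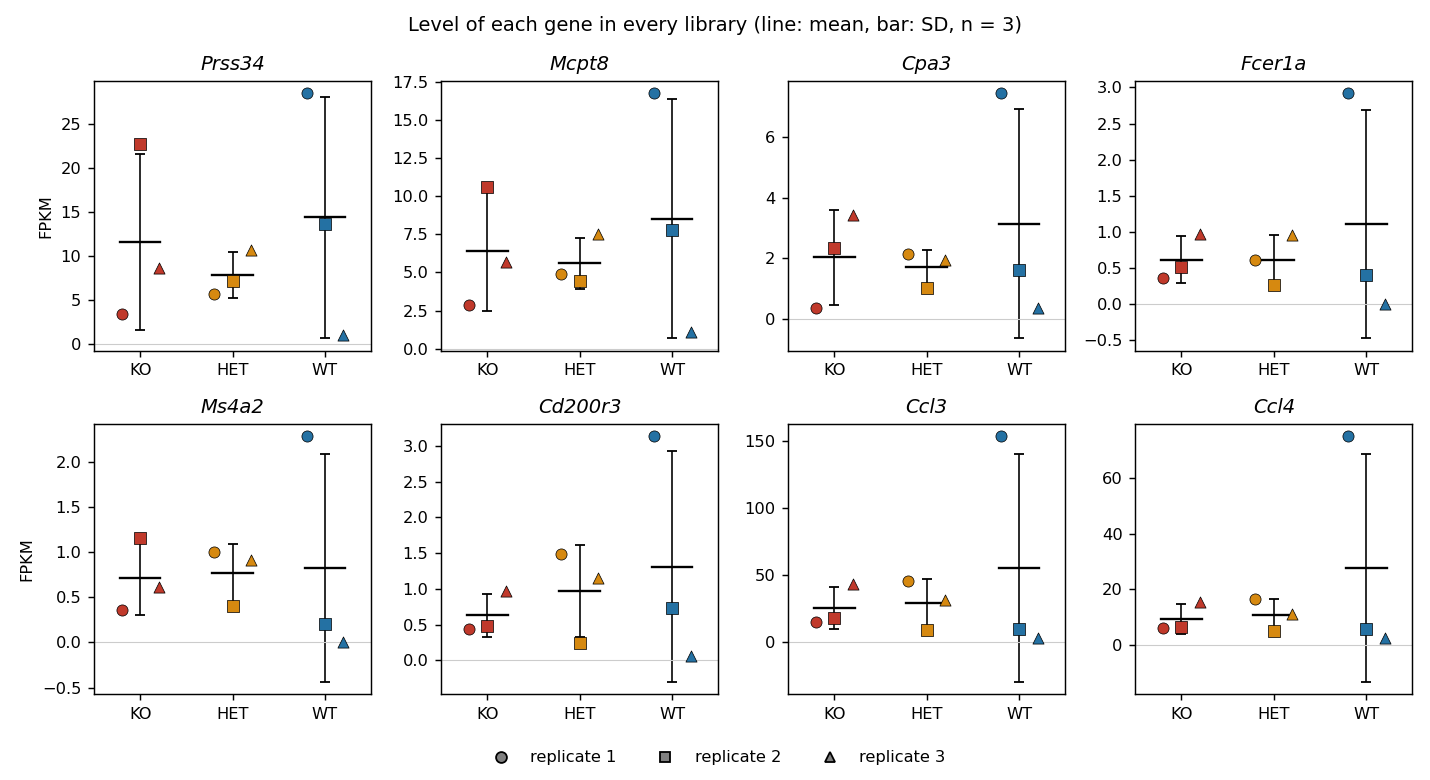
Level of each of the 8 genes in FPKM (vertical axes) in the 3 knockout (KO), 3 heterozygous (HET) and 3 wildtype (WT) libraries; symbols mark the replicate number, the line the mean and the bar the SD. Wildtype replicate 1 is the highest library in all 8 panels, and wildtype replicate 3 the lowest in 7.

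The comparison of knockout with wildtype asked whether loss of both Dhh alleles moved these genes in the sorted cells. None of the members differed beyond the spread between libraries. Prss34 averaged 11.6 ± 9.99 FPKM in knockout and 14.4 ± 13.8 FPKM in wildtype libraries, Mcpt8 6.39 ± 3.90 FPKM in knockout and 8.54 ± 7.87 FPKM in wildtype libraries, and Ccl3 25.1 ± 15.6 FPKM in knockout and 55.3 ± 85.1 FPKM in wildtype libraries (mean ± SD, n = 3 each). In wildtype the SD was larger than the mean for 6 of the 8 members, all but Prss34 and Mcpt8.

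Tests were run with limma on log2(FPKM + 1) over 9543 genes, those that reached 1 FPKM in 3 or more libraries, and an adjusted p below 0.05 (Benjamini-Hochberg over all genes tested) counted as a call. Of the members, 7 passed this filter and Fcer1a did not. Between knockout and wildtype 0 of the 7 were called, beside 0% of all genes, with 0 of the 7 at an unadjusted p below 0.05, beside 0.451% of all genes. The voom method of limma, run on recovered reads, also made 0 calls, and 38 genes had an unadjusted p below 0.05. The log2 differences were 0.08 ± 0.92 for Prss34, -0.03 ± 0.70 for Mcpt8, -0.20 ± 0.64 for Cpa3, 0.09 ± 0.42 for Ms4a2, -0.29 ± 0.46 for Cd200r3, 0.35 ± 1.19 for Ccl3 and -0.35 ± 0.98 for Ccl4 (SE, limma adjusted p = 0.9997 for each). Prss34, Ms4a2 and Ccl3 were higher in knockout on this scale although their mean FPKM were lower, since the log scale gives the low wildtype library more weight. The median over the 7 was -0.03 on the log2 scale, beside 0.01 for all genes tested. With voom the sign turned for 3 of the 7, and the differences ran from -0.01 for Cpa3 to 1.35 for Ms4a2. The groups overlapped for each member, whereas they did not overlap for 2.48% of all genes.

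The intervals were wide, so large differences remain possible. The 95% interval of Prss34 ran from -2.01 to 2.17 and that of Ccl3 from -2.34 to 3.05 on the log2 scale. The median SE of the 7 members was 0.70, against 0.19 for all genes tested.

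Heterozygous and wildtype libraries, which share the same wildtype libraries as the comparison above, gave a similar account. Prss34 averaged 7.80 ± 2.60 FPKM in heterozygous libraries, Mcpt8 5.60 ± 1.66, Cpa3 1.70 ± 0.584 and Ccl3 28.7 ± 18.4 FPKM (mean ± SD, n = 3), beside wildtype means of 14.4 for Prss34, 8.54 for Mcpt8, 3.14 for Cpa3 and 55.3 FPKM for Ccl3. The limma test called 0 of the 7 members, beside 0% of all genes, with 0 of the 7 at an unadjusted p below 0.05, beside 1.18% of all genes. Voom made 0 calls, and 91 genes had an unadjusted p below 0.05. The log2 differences lay between -0.23 for Cpa3 and 0.43 for Ccl3, with 2 of the 7 above 0 and a median of -0.08, beside -0.002 for all genes tested. With voom the sign turned for 5 of the 7, and all 7 were above 0, between 0.38 for Cpa3 and 1.72 for Ms4a2. The groups overlapped for each member, and they did not overlap for 4.36% of all genes.

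In knockout against heterozygous libraries, the difference was the smallest of the 3 comparisons for Ccl3 but the largest for Prss34, each within its SE. The log2 difference of Ccl3 was -0.08 ± 1.19, and the others ran from -0.23 for Cd200r3 to 0.23 for Prss34 (SE for Prss34 0.92). Of the 7 members 0 were called, beside 0% of all genes, and 0 had an unadjusted p below 0.05, beside 0.587% of all genes. Voom made 0 calls, and 53 genes had an unadjusted p below 0.05. The groups overlapped for each member, and did not for 4.48% of all genes. Fcer1a, which was not tested with the others, differed by -0.14 between knockout and wildtype, by -0.15 between heterozygous and wildtype and by 0.01 between knockout and heterozygous libraries on the log2(FPKM + 1) scale (2-sided exact permutation p = 0.9 in each, where 0.1 is the smallest that 3 against 3 libraries allow).

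**Figure D2:**
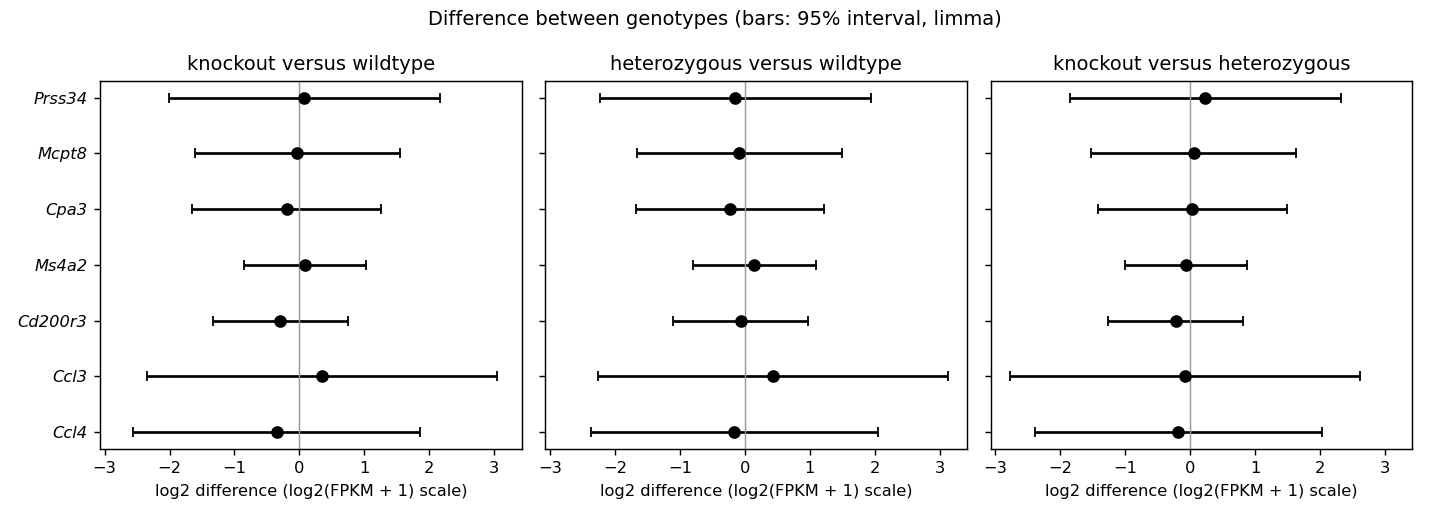
Log2 difference (horizontal axes, log2(FPKM + 1) scale) of the 7 tested genes in knockout versus wildtype, heterozygous versus wildtype and knockout versus heterozygous libraries; points are limma estimates and bars their 95% intervals. Each interval spans 0, and those of Ccl3, Ccl4 and Prss34 are the widest.

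The direction of the differences depended on which wildtype libraries were kept. Without wildtype replicate 1, the 7 members were all higher in knockout than in wildtype, with log2 differences between 0.24 for Cd200r3 and 1.89 for Ccl3. Leaving out wildtype replicate 3 instead made all 7 lower in knockout, between -0.24 for Ms4a2 and -1.26 for Ccl4. Heterozygous libraries behaved likewise, with differences from wildtype of 0.47 to 1.97 without wildtype replicate 1 and of -1.28 to -0.18 without wildtype replicate 3. None of these differences was called (lowest limma adjusted p = 0.8628). Without wildtype replicate 1, Ccl3 and Ms4a2 reached an unadjusted limma p below 0.05 between knockout and wildtype. These were 2 of the 7 members, beside 133 of all 9543 genes tested. Wildtype replicates 2 and 3, which were kept, held 2 and 0 reads of Ms4a2. Without wildtype replicate 3 and knockout replicate 2 together, the difference between knockout and wildtype was -1.67 for Prss34 (limma adjusted p = 0.1209) and -1.29 for Mcpt8 (limma adjusted p = 0.1373). Neither was called. For both genes these were the lowest wildtype and the highest knockout library. Their removal by itself makes the difference more negative, so this setting cannot show an effect of genotype. In that setting 2 of the 7 members had an unadjusted p below 0.05, beside 2097 of all 9543 genes tested.

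The spread lay within genotypes. Genotype accounted for 0.165% of the sum of squares of Mcpt8 on the log2(FPKM + 1) scale, 0.699% for Prss34, 1.62% for Ccl3 and at most 5.05%, for Cd200r3, beside a median of 9.44% over all genes tested. The SD within wildtype was 2.77 for Ccl3, 2.02 for Prss34 and 1.58 for Mcpt8, against a median of 0.26 over all genes tested. Within heterozygous libraries these SDs were 1.16, 0.41 and 0.35 for Ccl3, Prss34 and Mcpt8, and within knockout libraries 0.80, 1.22 and 0.79. The overall SD of Ccl3 exceeded that of 99.9% of the genes tested.

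Between the 2 extreme wildtype libraries the levels differed many-fold. Ccl3 was 55.9-fold higher in wildtype replicate 1 than in wildtype replicate 3 (95% interval 38.7 to 83.9), Ccl4 30.0-fold (19.5 to 48.3), Prss34 29.0-fold (17.6 to 51.4), Cpa3 20.7-fold (9.66 to 52.9) and Mcpt8 15.7-fold (8.65 to 31.1), from recovered reads with exact intervals that cover counting error only. Cd200r3 had 60 reads in replicate 1 and 2 reads in replicate 3, a ratio of 46.2 with an interval of 12.2 to 390. Fcer1a was at least 13.4-fold and Ms4a2 at least 10.3-fold higher, taking 3 reads for the 0 in replicate 3. Of all 9543 genes tested, 9.84% had the same pair of libraries as their highest and lowest.

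**Figure D3:**
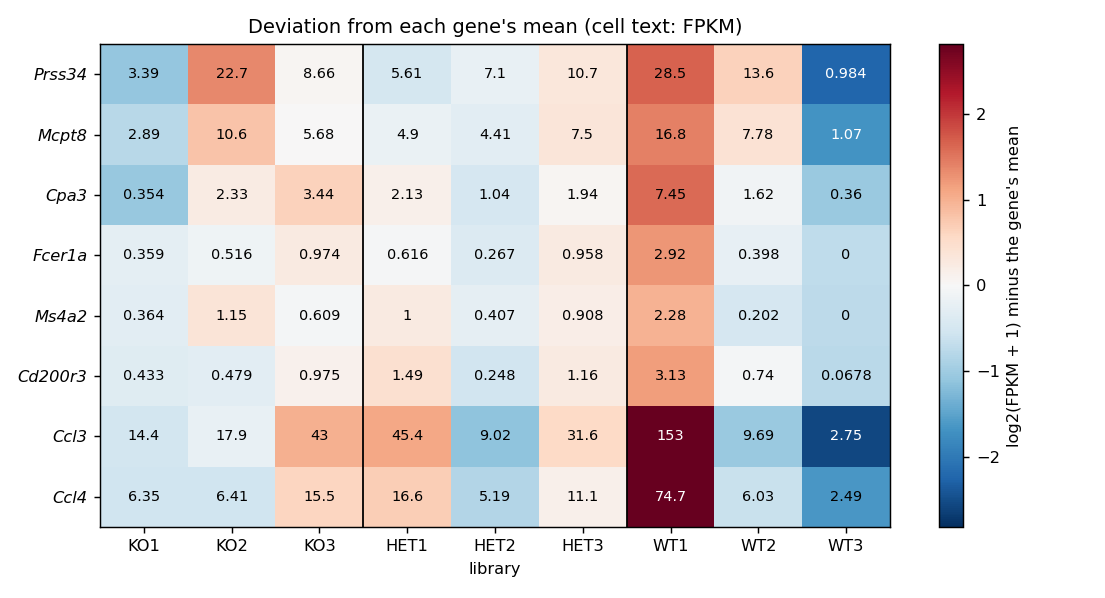
Deviation of log2(FPKM + 1) from each gene's mean over the 9 libraries (color), with FPKM written in the cells; columns are libraries and rows the 8 genes. The wildtype replicate 1 column is the highest throughout, while knockout replicate 2 stands above the mean for Prss34 and Mcpt8 and below it for Ccl3 and Ccl4.

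The members fell into patterns that the ratios of reads make plain, since scaling a library for its depth leaves the ratios within it unchanged. Mcpt8 made up 37.1%, 24.3% and 31.2% of the summed Mcpt8 and Prss34 reads in knockout, 37.6%, 30.0% and 32.7% in heterozygous and 28.8%, 28.3% and 42.9% in wildtype replicates 1 to 3. The highest of these, in wildtype replicate 3, rests on 28 reads and its exact 95% binomial interval ran from 24.5% to 62.8%. The intervals of knockout replicate 2 (19.9% to 29.2%) and heterozygous replicate 1 (30.3% to 45.2%) did not overlap, and those of every other pair of libraries did.

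Ccl3 did not keep step with the proteases. Its share of the summed Ccl3 and Prss34 reads was 73.5%, 33.9% and 76.3% in knockout, 84.0%, 45.2% and 65.8% in heterozygous and 77.8%, 31.6% and 64.4% in wildtype replicates 1 to 3. In each genotype replicate 2 had the lowest share. The exact 95% binomial intervals of the replicate 2 libraries were 29.3% to 38.8% for knockout, 35.9% to 54.8% for heterozygous and 25.8% to 37.98% for wildtype. Those of replicates 1 and 3 began at 61.8% or above, except in wildtype replicate 3, where the interval on 45 reads began at 48.8%.

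Cd200r3 was also lowest against Prss34 in the replicate 2 libraries, but only in knockout was its exact 95% binomial interval (1.78% to 6.68%) clear of those of replicates 1 and 3. In heterozygous replicate 2 the interval (1.65% to 14.6%) overlapped that of replicate 3 (12.0% to 21.8%). In wildtype replicate 2 it (5.23% to 14.2%) overlapped those of replicate 1 (12.9% to 20.9%) and replicate 3 (1.38% to 34.7%). Its share of the summed reads was 3.69%, 5.97% and 8.99% in the replicate 2 libraries of knockout, heterozygous and wildtype, and between 11.1% and 32.5% in the other 6 libraries. Cpa3 was less clear, at 10.9%, 14.9% and 12.4% in the same replicate 2 libraries, since knockout replicate 1 was also low at 11.1%. Ccl4 kept closer to Ccl3, at 22.7% to 43.1% of their summed reads. The labels give the replicate numbers and name no litter, batch or day, and the pattern was noticed after the values were seen. The replicate 2 libraries had 8.58, 7.05 and 9.66 M reads in knockout, heterozygous and wildtype, and wildtype replicate 1, with a Ccl3 share of 77.8%, had 8.66 M. The part of depth in these shares was not tested.

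**Figure D4:**
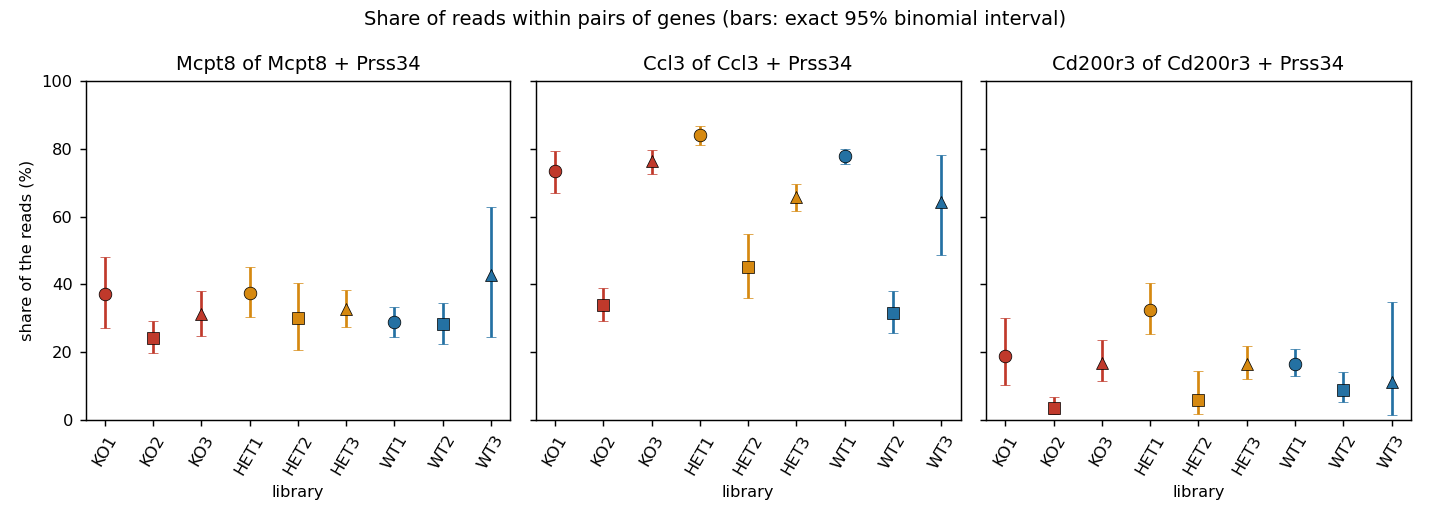
Share of reads (vertical axis, percent) of Mcpt8, Ccl3 and Cd200r3 within their sum with Prss34 in each of the 9 libraries; squares are replicate 2 and bars exact 95% binomial intervals. Mcpt8 shares stay between 24.3% and 42.9%, whereas Ccl3 shares drop to 45.2% or less in the replicate 2 library of each genotype.

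Over the 9 libraries, log2 levels of Prss34 and Mcpt8 correlated at Pearson r = 0.99 and those of Ccl3 and Ccl4 at r = 0.97, given as descriptions of libraries that share depth and cell makeup. Without wildtype replicates 1 and 3 these pairs were at r = 0.98 for the proteases and 0.97 for the chemokines, but Prss34 and Ccl3 turned to -0.10, against 0.66 over all 9 libraries. Fcer1a and Cd200r3 stayed nearer to the chemokines, at 0.85 and 0.84 with Ccl3 over the same 7 libraries.

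Genes with patterns like these were sought over all genes tested. Closest to the mean of the 7 members were Rhob (r = 0.99), Cd9 (0.99), Rgs2 (0.98), Sytl3 (0.98) and Zfp36 (0.98), and 167 of 9536 other genes had r above 0.9. Mcpt8 was most like Prss34, Csnk1e and Mfng (r = 0.98 or more for each). Ccl3 was most like Sytl3 (r = 0.98), Klf4 (0.97) and Fos (0.97), and the last, with Zfp36, encodes a protein of the immediate early response to stimulation. Rhob and Cd9 averaged 10.7 and 10.1 FPKM over the 9 libraries.

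Some other genes of basophils were present as well. In a list of 18 further basophil genes, 13 passed the filter, and limma called 0 in each comparison. Those that did not pass reached at most 0.393 FPKM (Il4), 0.191 FPKM (Il13), 1.21 FPKM (Ltc4s), 1.80 FPKM (Il6) and 1.34 FPKM (Itga2). Hdc, which makes histamine, was at 2.38, 6.59 and 6.24 FPKM in knockout, 4.33, 3.34 and 5.23 FPKM in heterozygous and 9.88, 4.68 and 1.32 FPKM in wildtype libraries. Gata2, a transcription factor of basophils and mast cells, was at 0.545, 1.47 and 2.25 FPKM in knockout, 3.02, 0.719 and 2.04 FPKM in heterozygous and 6.18, 0.913 and 0.277 FPKM in wildtype libraries. Both were highest in wildtype replicate 1 and lowest in wildtype replicate 3. Il1rl1, the receptor for IL-33, had the reverse order in wildtype, where replicate 3 (7.75 FPKM) exceeded replicate 1 (3.59 FPKM). The most abundant members of that list were Ptprc, the pan-leukocyte antigen CD45, and Ifitm1, at averages of 46.8 and 8.35 FPKM.

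Defining mast cell genes were uneven. Of 11 such genes in the table, Mrgprb2 and Tpsg1 were listed at 0 in every library, and 2 (Kit and Cma1) passed the filter. Tpsb2, a mast cell tryptase, reached at most 0.283 FPKM, in knockout replicate 3, and was listed at 0 in 5 libraries, the 3 wildtype ones included. Mcpt4, a chymase of connective tissue mast cells, reached at most 0.543 FPKM and was listed at 0 in 4 libraries. Cma1 was at 0.821, 1.18 and 0.571 FPKM in knockout, 1.17, 0 and 0.670 FPKM in heterozygous and 2.78, 0.664 and 0 FPKM in wildtype libraries. Kit, which erythroid progenitors also carry, averaged 1.37 FPKM over the 9 libraries. The means of Kit and of Cma1 (0.874 FPKM) were above those of Fcer1a (0.779 FPKM) and Ms4a2 (0.770 FPKM). Mcpt2, a mast cell chymase, was above 0 in all 9 libraries, with a mean of 0.355 FPKM. The tryptase genes Tpsb2 and Tpsg1 and the receptor gene Mrgprb2 were thus at or near 0, while Kit and Cma1 were at levels like those of the receptor chains.

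Genes that act with the members were examined by role. All 14 genes of the IgE receptor's signalling list passed the filter, with 0 called in each comparison, and were led by Fcer1g and Lcp2. Lcp2 was at 13.1 to 33.8 FPKM in knockout, 20.3 to 24.8 FPKM in heterozygous and 3.35 to 34.9 FPKM in wildtype libraries. Of the granule list, 7 of 9 passed the filter and 0 were called. Srgn, the proteoglycan that packs granule proteases, was at 27.9 to 52.6 FPKM in knockout, 36.1 to 45.9 FPKM in heterozygous and 30.7 to 75.9 FPKM in wildtype libraries. Ndst2, an enzyme of heparin synthesis, averaged 29.5 FPKM. Unlike the members, it was highest in wildtype replicate 3 (35.1 FPKM), against 25.6 FPKM in wildtype replicate 1. Of the CD200 receptor list, 3 of 6 passed and 0 were called, and Hcst averaged 7.08 FPKM. Cd200, the ligand of CD200R1, was at 0.0627 to 0.586 FPKM in knockout, 0.0539 to 0.643 FPKM in heterozygous and 0 to 0.736 FPKM in wildtype libraries.

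Ccr1, a receptor of Ccl3, was low. It was at 0.754 to 1.72 FPKM in knockout, 0.848 to 1.504 FPKM in heterozygous and 0.396 to 1.83 FPKM in wildtype libraries. Of the 10 genes in the list of chemokines and receptors, 6 passed the filter and 0 were called. Ccl5, a chemokine of T and NK cells, averaged 46.9 FPKM and Ccl6 25.0 FPKM.

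Markers of other blood cells also varied between libraries. In bulk RNA, fewer cells of a type and less RNA per cell cannot be told apart. B cell markers (9 of 9 in the table tested, led by Cd74 and H2-Aa) summed to 323 to 822 FPKM in knockout, 590 to 778 FPKM in heterozygous and 82.9 to 1312 FPKM in wildtype libraries. T and NK cell markers (11 of 11, led by Ccl5 and Gzma) summed to 98.3 to 169 FPKM in knockout, 95.02 to 128 FPKM in heterozygous and 2.99 to 251 FPKM in wildtype libraries. Macrophage and monocyte markers (14 of 14, led by Lyz2 and Csf1r) summed to 464 to 1559 FPKM in knockout, 764 to 974 FPKM in heterozygous and 153 to 1480 FPKM in wildtype libraries. All 3 sums were lowest in wildtype replicate 3, and their part in the levels of the members was not tested. A fit with a term for the mean of 45 markers, those of neutrophils included, called 0 members. The fit without the term also called 0, so this count cannot show the part of the markers. With the term the sign turned for 3 of the 7 members between knockout and wildtype.

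Neutrophil markers (11 of 11, led by S100a9 and S100a8) summed to 424 to 1509 FPKM in knockout, 263 to 778 FPKM in heterozygous and 333 to 1646 FPKM in wildtype libraries, with wildtype replicate 2 the highest and heterozygous replicate 1 the lowest. Eosinophil markers (5 of 8 tested, led by Ear2 and Prg2) summed to 17.9 to 72.0 FPKM in knockout, 33.9 to 51.8 FPKM in heterozygous and 25.1 to 60.4 FPKM in wildtype libraries. Prg2, an eosinophil granule protein, was highest in knockout replicate 3 (38.3 FPKM), and wildtype replicate 1, the top library of all 8 members, held 5.22 FPKM. Ear2 instead ran as most members did, highest in wildtype replicate 1 (40.7 FPKM) and lowest in wildtype replicate 3 (3.55 FPKM). Dendritic cell markers (4 of 6, led by Itgax and Zbtb46) summed to at most 29.2 FPKM, and platelet markers (2 of 7, led by Gp9 and Itga2b) stayed between 33.2 and 54.3 FPKM. In each of these lists 0 genes were called in each comparison.

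Immediate early genes, which cells switch on soon after stimulation, were highest in sum in wildtype replicate 1. Fos was at 48.0, 68.8 and 110 FPKM in knockout, 88.8, 43.2 and 102 FPKM in heterozygous and 252, 39.2 and 30.8 FPKM in wildtype libraries. The list of 11 (all tested, 0 called) summed to 253 to 447 FPKM in knockout, 222 to 415 FPKM in heterozygous and 205 to 1069 FPKM in wildtype libraries, led by Dusp1 and Fos. In wildtype replicate 3, where Ccl3 was lowest, Dusp1 was at 195 FPKM, against 210 FPKM in wildtype replicate 1. Nfkbia, which encodes an inhibitor of NF-kB, was at 74.6 FPKM in wildtype replicate 3, its highest library, and at 54.9 FPKM in wildtype replicate 1. Dusp1 and Nfkbia were exceptions, as every other gene of the list was clearly lower in wildtype replicate 3 than in wildtype replicate 1. Zfp36 was at 18.4 FPKM in the former and 202 FPKM in the latter, and Ier2 at 12.7 and 34.7 FPKM. The part of this response in the level of Ccl3 was not tested.

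**Figure D5:**
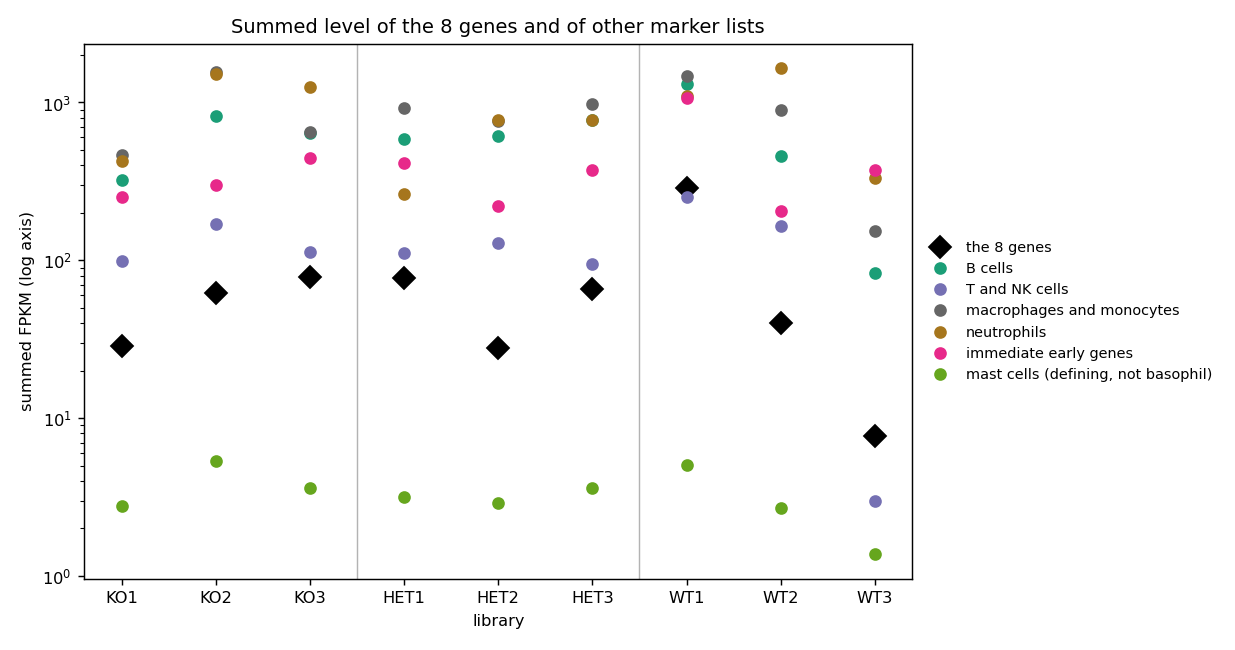
Summed FPKM (log axis) of the 8 genes (black diamonds) and of marker lists of other cells in each of the 9 libraries. The sum of the 8 genes runs from 7.72 FPKM in wildtype replicate 3 to 289 FPKM in wildtype replicate 1. Ccl3 and Ccl4, the least specific members, make up 67.9% and 78.9% of these 2 sums, and 39.2% in knockout replicate 2. The mast cell list stays at 5.39 FPKM or less.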

How the data were processed

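RNA sequencing of 9 libraries (3 knockout, 3 heterozygous, 3 wildtype) was deposited as 1 table. The authors' deposited values are FPKM, and TopHat, Picard, DESeq2 and mm10 are named in the submitters' processing notes, without versions or roles. The annotation, strandedness and read layout are not given here. Values of 14147 genes (those above 0 in 2 or more libraries) fell on whole steps, to within 0.02 of a read, and reads were recovered from them. The scale of each library was its median-of-ratios size factor (11276 genes), so a shift in composition can move every value of a library. For Prss34, Cpa3, Ccl3 and Ccl4, the lengths implied by these steps were 1268, 1515, 824 and 688 bases. They lay near the exon lengths in GENCODE M21 (1220, 1517, 766 and 660), which gave positions for 98.3% of rows. For Mcpt8 and Fcer1a they were 875 and 1070 bases, against 998 for each. For Ms4a2 and Cd200r3 they were far shorter, at 1053 and 2302 bases against 2813 and 5984. Over 14033 genes the median ratio of implied to exon length was 0.756.

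Genotype means were fitted to log2(FPKM + 1), a scale that understates changes of low genes, by limma 3.58.1 (R 4.3.3; eBayes with a trend), for genes that reached 1 FPKM in 3 or more libraries. It was also run on simulated reads without shifts in composition between libraries, so that run cannot show how it performs on these libraries. Python 3.11.15, scipy 1.17.1 and matplotlib 3.10.9 did the rest. All pairs of libraries differed by more than counting noise (chi-square of 7.68 or more per degree of freedom). Same-numbered knockout and heterozygous libraries deviated from their group means with correlations of 0.20, 0.18 and 0.41 for numbers 1, 2 and 3. The correlations were -0.57, 0.51 and 0.33 for knockout and wildtype and 0.13, 0.18 and 0.0014 for heterozygous and wildtype. The labels do not say what the numbers share. The tests given above paired no libraries, and a fit with the number as a block was run as an alternative.

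The members, lists and tests were chosen with earlier results of these data known. Named genes were the 8 members, called genes or the 2 most abundant of each list, and those with the most similar pattern (5 for the mean, 3 each for Mcpt8 and Ccl3). Fcer1g, Tyrobp, Hdc, Gata2, Il1rl1, Tpsb2, Mcpt2, Mcpt4, Mrgprb2, Nfkbia, Tpsg1, Cd200, Ccr1 and the read ratios were chosen after their values were seen. Alternatives covered pseudocounts, filters, scaling, trend, weights, depth and marker terms, the replicate block, voom and left-out libraries.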

Additional observations from a re-analysis of the deposited data

How the results depend on the processing

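The number of members called was 0 in every comparison under all alternatives run, among them pseudocounts of 0.1 and 5, filters, quantile normalization, depth and marker terms, voom, and each library left out. With the replicate number as a block, 0 members and 0 genes were called in each comparison, so the block changed no call. Library quality weights alone called genes: 1910 between knockout and wildtype and 739 between heterozygous and wildtype, where the fit stopped before it converged and gave wildtype replicate 2 a weight of 42.9. With gene-by-gene weights, added after seeing the data, 0 genes were called. Signs of the uncalled members changed under several settings: 5 of 7 in heterozygous versus wildtype with voom, and 3 of 7 in knockout versus wildtype with voom or with the marker term. Without wildtype replicates 1 and 3 together, added after seeing the data, the 7 differences between knockout and wildtype ran from -0.54 to 1.13, resting on wildtype replicate 2 alone, which is assumed to vary like the other groups. Depth limited Fcer1a, Ms4a2 and Cd200r3 most, with 80, 79 and 224 reads over the 9 libraries.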
